A study of Homo sapiens with 6 samples.

Results

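The genes described here are 46 genes of DNA repair and the DNA damage checkpoint, taken by symbol from a count table of 38167 genes. They cover recombination, the Fanconi anaemia pathway, mismatch, excision and end-joining repair, translesion synthesis, break sensing and the checkpoint kinases, and were listed for their bearing on platinum drugs. All 46 were found and all 46 passed the low-count filter, which left 18676 genes. The libraries came from spheroids of Cal27, an established line of human tongue squamous cell carcinoma. In the stiff condition the spheroids were grown in 12 mg/mL Matrigel, a basement membrane extract, and in the soft condition in 3 mg/mL Matrigel. Both were cultured with the liquid overlay technique, harvested on day 14 and measured by sequencing of polyadenylated RNA, with 3 libraries each. No drug or damaging agent is named for either condition, and a higher Matrigel concentration raises both stiffness and ligand density, so these cannot be told apart. The labels call the 3 libraries of a condition biological replicates without naming separate cultures or harvest days, and p-values therefore measure only the spread between these libraries.

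Cells meet DNA damage with several dedicated machineries. Crosslinks, including those made by platinum drugs, stall replication forks and are handled by the Fanconi pathway, in which a core complex attaches ubiquitin to the FANCI-FANCD2 clamp and nucleases then cut beside the lesion. Recombination with BRCA1, BRCA2 and PALB2 repairs the resulting breaks from the sister chromatid, nucleotide excision removes bulky adducts within a strand, and the kinases ATM and ATR signal through CHEK2 and CHEK1 to delay the cell cycle. Many of these genes are transcribed mainly in cycling cells, and the RNA level of several is known to vary with cycle phase. In bulk RNA, a lower share of cells that express a gene and less RNA per cell cannot be told apart.

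Library totals were 35292340, 36526394 and 36594685 fragments in stiff and 40583044, 33470916 and 30656278 in soft. Principal component 1 (75.1% of the variance) set stiff apart from soft, and component 2 (10.8%) set stiff replicate 2 apart from the other stiff libraries. Stiff replicate 2 had the lowest stiff value in 11 of the 13 members called lower and the highest in 9 of the 14 called higher. Without it, 15 members were called higher and 14 lower. All 8 squamous epithelial markers reached at least 1 CPM (a gene's count scaled to a common library size, with TMM factors) in every library, and their summed level was 15200 to 16100 CPM in stiff and 4450 to 4850 CPM in soft. CDH1 and EPCAM went against that sum, at 206 to 252 CPM in stiff and 305 to 336 CPM in soft for CDH1, and at 98.9 to 123 CPM in stiff and 131 to 137 CPM in soft for EPCAM. Of the markers of other cells, 3 of 7 for fibroblasts, 1 of 5 for endothelium and 2 of 5 for leukocytes reached 1 CPM in every library. Their summed levels were 99.3 to 106 CPM in stiff and 72.9 to 80.4 CPM in soft for fibroblasts, 3.45 to 4.21 and 1.86 to 2.26 CPM for endothelium, and 130 to 144 and 103 to 111 CPM for leukocytes. COL3A1, PDGFRB, PECAM1, KDR, PTPRC and CD3E stayed under 1 CPM in every library, but other markers of these lists differed between the conditions. COL1A1, the fibroblast marker with the highest level, had 78.8 to 85.4 CPM in stiff and 66.9 to 76.2 CPM in soft. LUM had 16.2 to 18.3 CPM in stiff and 1.29 to 3.28 CPM in soft, CD68 had 97.9 to 104 CPM in stiff and 53.3 to 58.2 CPM in soft, and CD14 had 31.3 to 39.2 CPM in stiff and 49.7 to 54.2 CPM in soft. The part of these markers in the results was not tested.

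The repair genes split evenly by direction: 14 of the 46 were higher in stiff, 13 were lower and 19 did not pass the test. The rises included the Fanconi core genes FANCC and FANCE, the checkpoint kinase gene CHEK2, the ultraviolet damage sensor gene DDB2 and PARP2. The falls included ATR, BRCA1, NBN, WRN and both Ku genes. The test was edgeR's quasi-likelihood test, with p-values adjusted by the Benjamini-Hochberg method over all 18676 genes and a threshold of 0.05. Over all genes tested, 49.1% were called, 25.3% as higher and 23.8% as lower, against 58.7% of the members. The median log2 fold change of the members was 0.0, as was that of all genes.

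Most of these changes were small. Fold changes ranged from 1.17 to 2.84 among the members called higher and from 1.14 to 1.96 among those called lower, and 18 of the 27 were under 1.5-fold. At least 1.5-fold was reached by 6 members called higher and 3 called lower, where 25.7% of all genes were called at that size. The stiff and soft libraries did not overlap in CPM for 15 members that were higher and 15 that were lower in stiff, 65.2% of the list against 59.9% of all genes. Leaving out soft replicate 1 lowered the number of members called lower to 8, the only case in which leaving out a single library moved a member count by more than 1.5 times. On the scale of the deposited TPM values, where 38 members passed a mean of at least 1 TPM, limma on log2(TPM + 1) called 10 members higher and 11 lower. There the share of calls that were higher was 41.3% over all genes, against 51.5% in the count test.

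**Figure D1:**
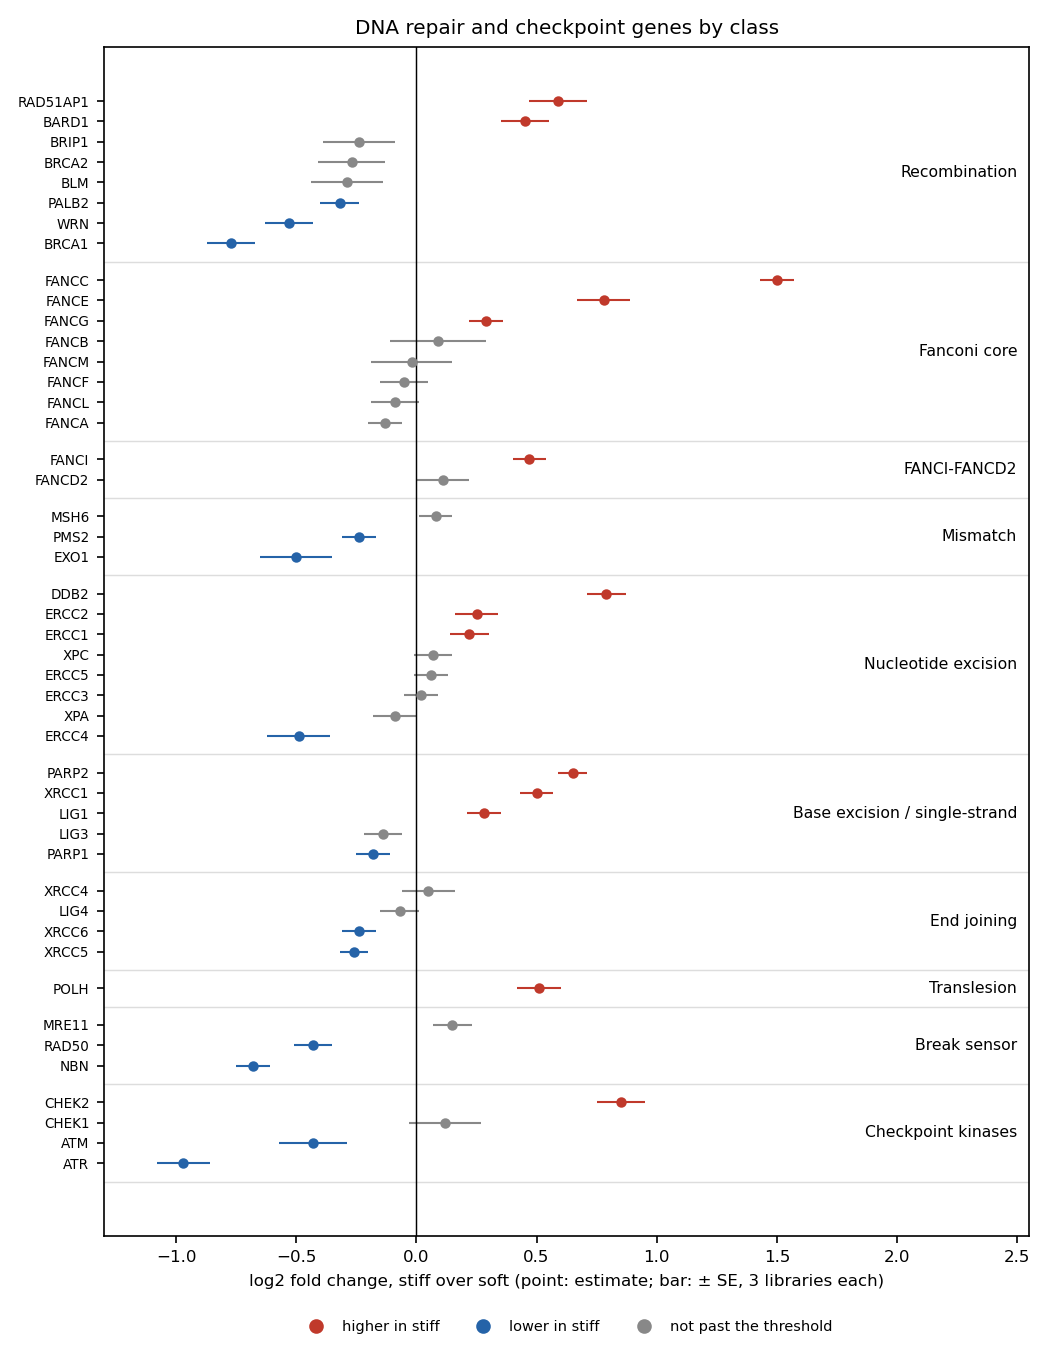
Log2 fold change, stiff over soft, for the 46 genes in 10 functional classes; points are edgeR estimates, bars ± SE from 3 stiff and 3 soft libraries, and colour gives the call at an adjusted p of 0.05. FANCC at 1.5 and ATR at -0.97 lie at the ends of the range, and 6 classes hold no call in one of the directions.

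Of the 46 members, 42 matched a promoter in a table of RefSeq on GRCh38.p14, and the 250 bases before the annotated start were searched on both strands. The motifs were E2F sites (TTTCCCGC, TTTCGCGC, TTTGCCGC or TTTGGCGC), which bind the E2F factors of the cell cycle, the CHR element (TTTGAA or TTTAAA) of G2 and mitotic genes, and the CCAAT box bound by NF-Y. None of these letters contains another of the motifs. Shown are the 6 members with the smallest p that hold a match, with matches on either strand in capitals, so that ATTGG is CCAAT and GCGCGAAA is TTTCGCGC read on the other strand. The windows are chr9:95317710-95317959 (minus strand) for FANCC, chr11:47214204-47214453 (plus) for DDB2, chr22:28741821-28742070 (minus) for CHEK2, chr19:43575528-43575777 (minus) for XRCC1, chr12:4538640-4538889 (plus) for RAD51AP1 and chr16:23641311-23641560 (minus) for PALB2. The first 5 genes were higher in stiff and PALB2 was lower. The GENCODE bounds of FANCC, CHEK2, XRCC1 and RAD51AP1 reach farther upstream than the RefSeq start used here.
FANCC: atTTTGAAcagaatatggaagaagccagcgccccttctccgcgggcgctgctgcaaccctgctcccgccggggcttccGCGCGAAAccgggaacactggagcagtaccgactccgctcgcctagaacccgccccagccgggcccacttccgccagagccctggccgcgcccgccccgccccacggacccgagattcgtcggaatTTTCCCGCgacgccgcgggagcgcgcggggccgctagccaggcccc
DDB2: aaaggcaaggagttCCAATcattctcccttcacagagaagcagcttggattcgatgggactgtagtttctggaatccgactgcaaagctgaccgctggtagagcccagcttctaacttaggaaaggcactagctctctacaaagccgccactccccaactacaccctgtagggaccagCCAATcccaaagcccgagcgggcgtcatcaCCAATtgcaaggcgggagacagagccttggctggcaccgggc
CHEK2: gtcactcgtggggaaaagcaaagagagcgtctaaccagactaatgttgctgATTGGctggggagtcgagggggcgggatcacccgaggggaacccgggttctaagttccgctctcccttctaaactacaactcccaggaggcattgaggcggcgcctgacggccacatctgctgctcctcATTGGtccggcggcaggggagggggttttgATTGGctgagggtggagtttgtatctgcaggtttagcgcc
XRCC1: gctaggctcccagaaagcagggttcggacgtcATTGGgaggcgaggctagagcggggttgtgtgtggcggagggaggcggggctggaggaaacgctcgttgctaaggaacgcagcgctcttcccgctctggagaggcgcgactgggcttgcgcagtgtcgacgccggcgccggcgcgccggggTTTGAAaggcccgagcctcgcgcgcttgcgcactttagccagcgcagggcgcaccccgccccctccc
RAD51AP1: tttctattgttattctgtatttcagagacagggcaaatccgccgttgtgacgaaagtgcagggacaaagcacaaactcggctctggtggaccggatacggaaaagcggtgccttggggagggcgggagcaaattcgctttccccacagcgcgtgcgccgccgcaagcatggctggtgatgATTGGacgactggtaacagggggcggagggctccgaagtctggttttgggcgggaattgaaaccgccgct
PALB2: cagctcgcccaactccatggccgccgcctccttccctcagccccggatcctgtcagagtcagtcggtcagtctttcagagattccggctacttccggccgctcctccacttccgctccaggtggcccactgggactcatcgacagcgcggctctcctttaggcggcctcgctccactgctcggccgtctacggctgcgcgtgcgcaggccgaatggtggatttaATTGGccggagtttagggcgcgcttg

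FANCC held an E2F match from 46 to 39 bases before its start, another from 172 to 165 and a CHR match from 248 to 243. DDB2 held 3 CCAAT matches, whose first bases lay 236, 72 and 42 bases before the start, and CHEK2 also held 3, at 199, 70 and 40. RAD51AP1 had a single CCAAT match at 70 bases, PALB2 a single one at 26, and XRCC1 one at 218 beside a CHR match at 67. Over all 27305 promoters of the table, 2.79% held an E2F match, 22.1% a CHR match and 33.0% a CCAAT match. Among the 42 members these were 5 promoters (11.9%), 7 (16.7%) and 17 (40.5%). CCAAT matches stood in 5 of 13 members called higher, 4 of 10 called lower and 8 of 19 that did not pass the test. E2F matches stood in 2, 1 and 2 of the same members and CHR matches in 2, 1 and 4, so that each motif was found among members of both directions. A match describes the letters of the window and not binding.

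Of the 4 checkpoint kinase genes, ATR and ATM were lower in stiff, CHEK2 was higher and CHEK1 did not pass the test (75.0% called against 49.1% of all genes). ATR, the kinase that senses stalled forks and stretches of exposed strand (chr3:142449235-142578826 in GRCh38, minus strand), had 38.0, 28.5 and 37.8 CPM in the stiff libraries, against 74.1, 64.7 and 65.8 CPM in the soft libraries. Every stiff library lay below every soft library, with stiff replicate 2 lowest of all. The fold change was 1.96-fold lower (log2 -0.97 ± 0.11 SE, adjusted p = 8.28e-05 by edgeR's quasi-likelihood test). CHEK1, the kinase that ATR activates, had 8.67, 7.68 and 7.12 CPM in stiff, against 7.82, 7.94 and 5.76 CPM in soft. These libraries overlapped, and CHEK1 did not pass the test (log2 0.12 ± 0.15 SE, adjusted p = 0.518).

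ATM, the kinase that answers broken ends (chr11:108222484-108369102, plus strand), had 24.2, 17.5 and 25.9 CPM in stiff, against 32.5, 26.8 and 31.9 CPM in soft. The groups did not overlap, although the highest stiff library lay within 1 CPM of the lowest soft one, and stiff replicate 2 was again the lowest. ATM was 1.35-fold lower (adjusted p = 0.0268, edgeR). The call was lost on unfiltered log2(TPM + 1), without soft replicate 1 (adjusted p = 0.098) and without soft replicate 3 (0.0873), in a range of 0.000334 to 0.098 over all alternatives. CHEK2, the kinase activated by ATM (chr22:28687743-28742422, minus strand), had 26.2, 32.9 and 27.2 CPM in stiff, against 15.4, 16.3 and 16.3 CPM in soft. All stiff libraries were above all soft libraries, with stiff replicate 2 the highest, and the change was 1.80-fold (log2 0.85 ± 0.10 SE, adjusted p = 9.15e-05). CHEK2 has near-identical pseudogene copies in the genome, and how reads with several matches were counted is not given in the sources used here.

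In the break sensor, which holds and trims broken ends and brings ATM to them, NBN and RAD50 were lower in stiff and MRE11 did not pass the test. NBN, the subunit that recruits ATM, had 40.5, 38.0 and 38.8 CPM in stiff, against 65.2, 63.0 and 60.3 CPM in soft. Every stiff library was below every soft library by a wide margin, and NBN was 1.61-fold lower (log2 -0.68 ± 0.07 SE, adjusted p = 3.27e-05, edgeR). RAD50, the subunit that tethers ends, averaged 92.1 ± 7.23 CPM in stiff and 124 ± 5.61 CPM in soft (SD, n = 3 each) and was 1.34-fold lower (adjusted p = 0.00128). MRE11, the nuclease, averaged 60.9 ± 4.81 CPM in stiff and 55.0 ± 0.985 CPM in soft (SD, n = 3 each) and did not pass the test (adjusted p = 0.139), but was called higher without stiff replicate 2 (adjusted p = 0.00318, in a range of 0.00318 to 0.863 over all alternatives). RAD50 shares 79.7% of its exon bases with AC116366.3, a GENCODE protein-coding gene on the same strand that has no row under that name in the count table. Antisense genes or a pseudogene likewise without a row share 25.7% of the exon bases of ERCC4, 23.8% of XPC, 15.5% of XRCC1 and 16.4% of ATR, so reads of these partners in the counts of the 5 genes cannot be told apart.

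**Figure D2:**
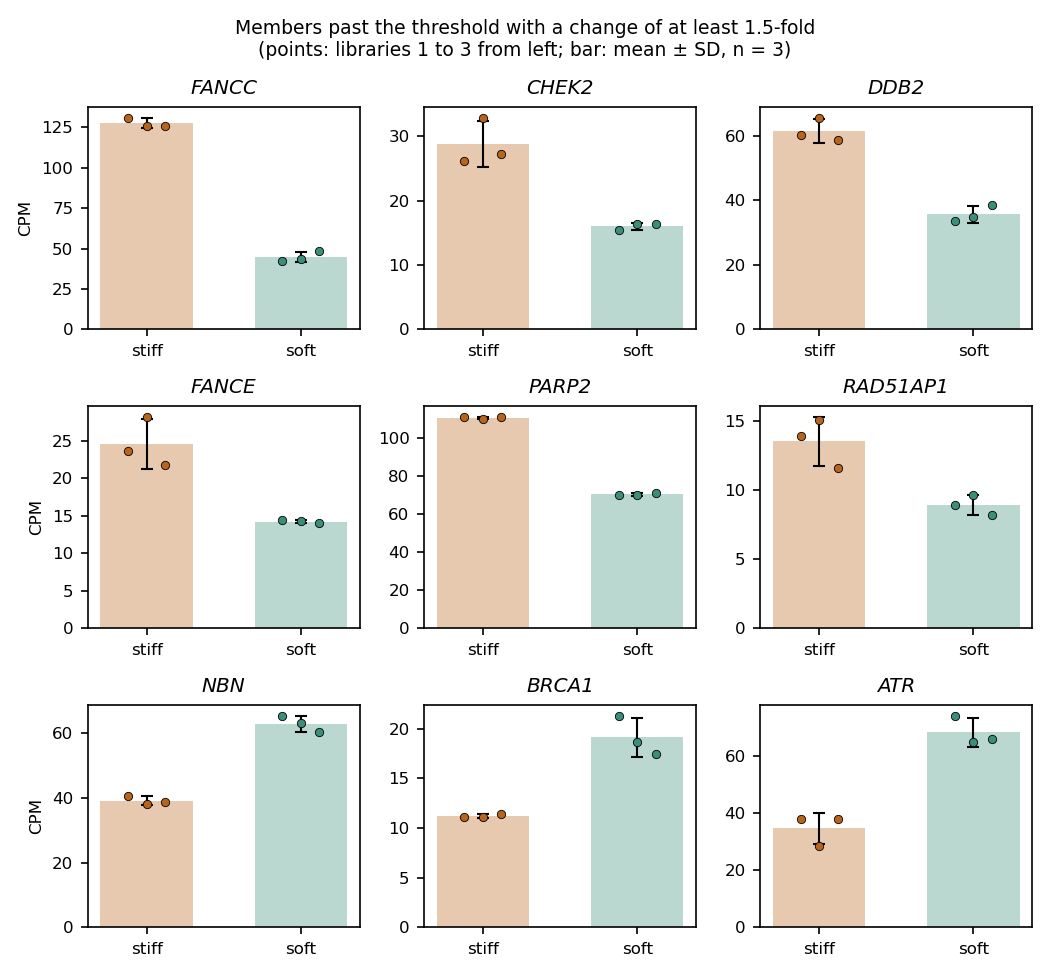
CPM of the 9 members past the threshold with a change of at least 1.5-fold; points are the 3 stiff and 3 soft libraries in order of replicate number, bars are means and error bars SD. FANCC libraries lie between 126 and 131 CPM in stiff and between 42.4 and 48.6 CPM in soft, and no gene shown has overlapping groups.

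Among the 8 recombination genes 2 were higher, 3 were lower and 3 did not pass the test, 62.5% called against 49.1% of all genes. Their median log2 fold change was -0.28. BRCA1, which directs end resection in recombination (chr17:43044295-43170245, minus strand), had 11.1, 11.1 and 11.4 CPM in stiff, against 21.3, 18.6 and 17.4 CPM in soft. The stiff libraries were nearly equal and all below the soft libraries, and BRCA1 was 1.70-fold lower (log2 -0.77 ± 0.10 SE, adjusted p = 0.000157, edgeR). NBR2, a non-coding gene that starts head to head with BRCA1 and shares none of its exons, had 12.7, 12.4 and 12.3 CPM in stiff, against 23.2, 24.3 and 22.3 CPM in soft. That neighbour was 1.87-fold lower (adjusted p = 1.56e-05), it was chosen after its values were seen, and its part in the BRCA1 result was not tested. BARD1, the obligate RING partner of BRCA1, was higher, at 12.4 ± 0.992 CPM in stiff and 9.09 ± 0.445 CPM in soft (SD, n = 3 each; 1.37-fold, adjusted p = 0.00498), a call lost on unfiltered log2(TPM + 1).

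BRCA2, a mediator of recombination at resected ends, had 10.1, 7.46 and 8.73 CPM in stiff, against 11.7, 9.32 and 10.6 CPM in soft. The libraries overlapped, since stiff replicate 1 exceeded soft replicate 2, and BRCA2 did not pass the test (log2 -0.27 ± 0.14 SE, adjusted p = 0.131). PALB2, the bridge between BRCA1 and BRCA2, was 1.25-fold lower (20.1 ± 0.439 CPM in stiff and 25.1 ± 0.707 CPM in soft, adjusted p = 0.0058). RAD51AP1, which stimulates strand pairing in recombination, had 13.9, 15.1 and 11.6 CPM in stiff, against 8.95, 9.67 and 8.17 CPM in soft. Each stiff library was above each soft library, and RAD51AP1 was 1.51-fold higher (log2 0.59 ± 0.12 SE, adjusted p = 0.00274). Of the RecQ helicases, which unwind recombination intermediates, WRN was 1.44-fold lower (18.7 ± 2.03 CPM in stiff and 27.0 ± 1.76 CPM in soft, adjusted p = 0.00165). BLM, at 5.04 ± 0.558 and 6.13 ± 0.997 CPM in stiff and in soft, and the helicase gene BRIP1, at 5.17 ± 0.856 and 6.08 ± 0.571 CPM, did not pass (adjusted p = 0.15 and 0.219).

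The Fanconi core complex had 3 members that were higher and 5 that did not pass the test, 37.5% called against 49.1% of all genes. The largest change of the whole list was in FANCC (chr9:95099054-95426796, minus strand), a core subunit that acts together with FANCE and FANCF in the complex. FANCC had 131, 126 and 126 CPM in stiff, against 42.4, 43.8 and 48.6 CPM in soft. All stiff libraries were far above all soft libraries, and the change was 2.84-fold (log2 1.5 ± 0.07 SE, adjusted p = 4.06e-07, edgeR). FANCE, the subunit that binds FANCD2 for ubiquitination, had 23.6, 28.2 and 21.7 CPM in stiff, against 14.4, 14.3 and 14.0 CPM in soft. The groups did not overlap, and FANCE was 1.72-fold higher (log2 0.78 ± 0.11 SE, adjusted p = 0.000208). FANCG, a scaffold subunit, was 1.22-fold higher (26.8 ± 0.637 CPM in stiff and 22 ± 0.249 CPM in soft, adjusted p = 0.00902), a call lost on log2(TPM + 0.1).

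The other core genes did not pass the test. The ubiquitin ligase gene FANCL had 41.0 ± 5.78 CPM in stiff and 43.5 ± 0.973 CPM in soft, and the scaffold gene FANCA 25.3 ± 0.639 and 27.7 ± 0.627 CPM. FANCF had 8.30 ± 0.54 CPM in stiff and 8.57 ± 0.296 CPM in soft, and the DNA translocase gene FANCM 7.31 ± 1.42 and 7.37 ± 1.24 CPM. FANCB, with 55 fragments in its thinnest library, had 2.21 ± 0.396 CPM in stiff and 2.06 ± 0.274 CPM in soft, and its SE of 0.20 was the largest of the list. Adjusted p over these 5 genes ran from 0.172 for FANCA to 0.941 for FANCM. FANCA, FANCF and FANCL share 23.6%, 11.3% and 18.7% of their exon bases with a gene on the opposite strand (ZNF276, GAS2 and VRK2). Their counts are uncertain because the strand setting of the counting is not given. Over the libraries ZNF276 had 40.5 to 49.0 CPM and VRK2 61.6 to 69.2 CPM, whereas GAS2, the partner of FANCF, had at most 0.112 CPM. FANCL was called lower without stiff replicate 2 (adjusted p = 0.00711, in a range of 0.00711 to 0.894 over all alternatives). FANCA, whose groups did not overlap, was called lower by limma on log2(TPM + 1) and on log2(TPM + 0.1), in a range of adjusted p of 0.0455 to 0.966 over all alternatives.

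The clamp that the core complex marks had 1 of its 2 genes called, 50.0% against 49.1% of all genes. FANCI had 63.1, 66.3 and 66.1 CPM in stiff, against 45.1, 50.6 and 45.7 CPM in soft, with no overlap, and was 1.38-fold higher (log2 0.47 ± 0.07 SE, adjusted p = 0.000517). FANCD2, its partner, had 11.4, 10.3 and 11.0 CPM in stiff, against 11.1, 9.20 and 9.84 CPM in soft. These groups overlapped, and FANCD2 did not pass the test (log2 0.11 ± 0.11 SE, adjusted p = 0.415). FANCD2 too has pseudogene copies. POLG, which lies on the opposite strand and shares 5.9% of the FANCI exon bases, was 1.47-fold higher, and its part in the FANCI count was not tested.

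Of the 14 further Fanconi and crosslink nuclease genes, 2 were higher and 5 lower (50.0% called against 49.1% of all genes). UBE2T, the conjugating enzyme that hands ubiquitin to the clamp, had the largest change of these (17.5 ± 2.77 CPM in stiff and 7.27 ± 0.589 CPM in soft, 2.40-fold, adjusted p = 3.42e-05), and FAAP20, a subunit attached to FANCA, was 1.26-fold higher. The crosslink nuclease gene DCLRE1A was 1.47-fold lower and the core subunit gene FAAP100 1.38-fold lower. Of 24 further recombination genes, 9 were higher and 3 lower (50.0% called against 49.1% of all genes). HROB, which loads the MCM8-MCM9 helicase, was 2.18-fold higher (8.12 ± 0.373 CPM in stiff and 3.72 ± 0.407 CPM in soft, adjusted p = 6.85e-05), while MCM9 itself was 1.65-fold lower (13.4 ± 1.26 CPM in stiff and 22.1 ± 0.532 CPM in soft, adjusted p = 0.00015). The recombination accessory gene SFR1 was 1.58-fold higher, and the recombination gene RAD51D was 1.67-fold lower.

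Nucleotide excision repair held 3 members that were higher, 1 that was lower and 4 that did not pass, 50.0% called against 49.1% of all genes. DDB2, the subunit that finds ultraviolet lesions in chromatin and a known p53 target (chr11:47214465-47239240, plus strand), had 60.3, 65.7 and 58.7 CPM in stiff, against 33.6, 34.9 and 38.5 CPM in soft. Every stiff library was above every soft library, and DDB2 was 1.73-fold higher (log2 0.79 ± 0.08 SE, adjusted p = 3.46e-05, edgeR). ERCC1, which with ERCC4 forms the nuclease that cuts on the 5′ side of a lesion and beside crosslinks, had 64.5, 75.0 and 66.4 CPM in stiff, against 58.1, 60.4 and 57.8 CPM in soft. The groups did not overlap, but the change was 1.17-fold (log2 0.22 ± 0.08 SE, adjusted p = 0.0337). The call was lost in 9 of 19 alternatives, 4 of which left out a library (any soft library or stiff replicate 3), and the adjusted p ran from 0.00351 to 0.283 over the alternatives. POLR1G on the opposite strand shares 28.6% of the ERCC1 exon bases, so its count is uncertain.

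ERCC4, the catalytic subunit of that nuclease, was 1.40-fold lower (12.8 ± 1.47 CPM in stiff and 17.9 ± 2.87 CPM in soft, adjusted p = 0.0115), a call lost without soft replicate 1 (adjusted p = 0.0577) and on the TPM scales, in a range of 0.000224 to 0.0984 over all alternatives. ERCC2, a helicase of the TFIIH complex, was 1.19-fold higher (adjusted p = 0.0397), but not in 7 of the 19 alternatives, among them the removal of any 1 soft library (adjusted p = 0.107, 0.155 and 0.0762, in a range of 0.00683 to 0.251 over all alternatives). KLC3, on the opposite strand, shares 8.3% of the ERCC2 exon bases and was 2.02-fold higher, and its part in the ERCC2 count was not tested. The other TFIIH helicase gene ERCC3, the 3′ nuclease gene ERCC5, the damage verifier gene XPA and the lesion sensor gene XPC had log2 fold changes from -0.09 to 0.07, with adjusted p from 0.438 to 0.812. ERCC5 shares 63.2% of its exon bases with the readthrough gene BIVM-ERCC5, so its count is uncertain. Among 17 further genes of the pathway 4 were higher and 5 lower (52.9% called against 49.1% of all genes). Among them were XAB2 (1.28-fold higher) and CDK7 (1.32-fold higher), and the TFIIH subunit genes GTF2H3 (1.43-fold lower) and GTF2H1 (1.25-fold lower).

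Base excision and single-strand break repair had 3 of its 5 members higher and 1 lower, 80.0% called against 49.1% of all genes. PARP2, which like PARP1 marks nicks with poly(ADP-ribose), had 111, 110 and 111 CPM in stiff, against 69.9, 69.9 and 71.2 CPM in soft. The libraries of each condition were nearly equal and the groups did not overlap, and PARP2 was 1.57-fold higher (log2 0.65 ± 0.06 SE, adjusted p = 1.91e-05, edgeR). PARP1, the main nick sensor, was 1.14-fold lower (89.3 ± 5.03 CPM in stiff and 102 ± 3.26 CPM in soft, adjusted p = 0.0494), the call nearest to the threshold, which was lost in 10 of 19 alternatives, 5 of which left out a library other than stiff replicate 2 (adjusted p from 0.051 to 0.137, in a range of 0.0164 to 0.137 over all alternatives). XRCC1, the scaffold that gathers the nick repair enzymes, was 1.42-fold higher (49.3 ± 0.777 CPM in stiff and 34.8 ± 1.96 CPM in soft, adjusted p = 0.000318). LIG1, the ligase of replication, was 1.21-fold higher (adjusted p = 0.0114), but not on the TPM scales or without soft replicate 1 (adjusted p = 0.0537, in a range of 0.000683 to 0.376 over all alternatives). LIG3, the ligase that XRCC1 binds, did not pass (30.1 ± 0.615 CPM in stiff and 33.2 ± 2.93 CPM in soft, adjusted p = 0.183), and its count is uncertain because RFFL shares 29.1% of its exon bases.

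Of 21 further genes of this pathway 5 were higher and 6 lower (52.4% called against 49.1% of all genes). The glycosylase gene NEIL3, which removes oxidised bases and unhooks some crosslinks, was 2.50-fold higher (3.62 ± 0.611 CPM in stiff and 1.44 ± 0.165 CPM in soft, adjusted p = 0.000358), and OGG1, which removes 8-oxoguanine, was 1.41-fold higher. PARG, which takes poly(ADP-ribose) off again, was 1.35-fold lower, and the glycosylase gene MUTYH was 1.34-fold lower. In mismatch repair 2 of 3 members were lower and 1 did not pass the test (66.7% called against 49.1% of all genes). EXO1, the exonuclease that removes the strand with the error, had 4.81, 3.53 and 4.30 CPM in stiff, against 6.45, 5.72 and 5.63 CPM in soft. The stiff libraries all lay below the soft ones, and EXO1 was 1.41-fold lower (log2 -0.50 ± 0.15 SE, adjusted p = 0.0182), a call lost on unfiltered log2(TPM + 1) and without soft replicate 1 (adjusted p = 0.079, in a range of 0.0045 to 0.079 over all alternatives). PMS2, the endonuclease subunit, was 1.18-fold lower (52.3 ± 3.40 CPM in stiff and 61.8 ± 1.31 CPM in soft, adjusted p = 0.0196), a call lost on 2 of the TPM scales and without soft replicate 1 or 2 (adjusted p = 0.0805 and 0.053, in a range of 0.00126 to 0.0805 over all alternatives). PMS2 has near-identical pseudogene copies and is uncertain. The mismatch sensor gene MSH6 did not pass (adjusted p = 0.383), and 16.2% of its exon bases are shared with FBXO11. Of 3 further genes, MSH3 was 1.25-fold lower and PMS1 1.21-fold lower, and MLH3 did not pass the test (66.7% called).

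End joining had 2 of its 4 members lower, and the other 2 did not pass the test, 50.0% called against 49.1% of all genes. XRCC5, the larger Ku subunit that caps broken ends, had 216, 217 and 222 CPM in stiff, against 263, 269 and 254 CPM in soft. The groups did not overlap, and XRCC5 was 1.20-fold lower (log2 -0.26 ± 0.06 SE, adjusted p = 0.00513, edgeR). XRCC6, the other Ku subunit, was 1.18-fold lower (296 ± 16.3 CPM in stiff and 350 ± 2.22 CPM in soft, adjusted p = 0.0112), a call lost without stiff replicate 3 (adjusted p = 0.0539, in a range of 8.25e-05 to 0.0539 over all alternatives). The ligase gene LIG4 and its cofactor gene XRCC4 had log2 fold changes of -0.07 and 0.05 and did not pass (adjusted p = 0.478 and 0.732). Of 9 further end-joining genes 1 was higher and 3 lower (44.4% called against 49.1% of all genes). PRKDC, the kinase that Ku recruits, was 1.66-fold lower (146 ± 30.9 CPM in stiff and 242 ± 19.2 CPM in soft, adjusted p = 0.00164), and TP53BP1, which shields ends from resection, was 1.53-fold lower. The polymerase gene POLM was 1.22-fold higher.

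POLH encodes the polymerase that copies past ultraviolet lesions and platinum crosslinks within a strand (chr6:43576150-43615660, plus strand). It had 20.2, 19.3 and 18.8 CPM in stiff, against 12.8, 14.9 and 13.2 CPM in soft. All stiff libraries exceeded all soft libraries, and POLH was 1.43-fold higher (log2 0.51 ± 0.09 SE, adjusted p = 0.00118, edgeR). Of 9 further translesion genes 1 was higher and 2 lower (33.3% called against 49.1% of all genes). MAD2L2 and REV3L encode subunits of the same polymerase, and MAD2L2 was 1.54-fold higher while the catalytic subunit gene REV3L was 1.49-fold lower. The polymerase gene POLK was 1.35-fold lower. Among 19 further checkpoint genes 8 were higher and 3 lower (57.9% called against 49.1% of all genes). WEE1, the kinase that holds back mitosis, was 2.00-fold higher (46.7 ± 3.64 CPM in stiff and 23.3 ± 1.77 CPM in soft, adjusted p = 1.38e-05), and the ubiquitin ligase gene RNF168 was 1.69-fold higher. BRCC3, a deubiquitinase of a BRCA1 complex, was 2.14-fold lower (18.1 ± 1.52 CPM in stiff and 38.8 ± 0.673 CPM in soft, adjusted p = 4.87e-06), and CLSPN, the mediator between ATR and CHEK1, was 1.68-fold lower (adjusted p = 0.00142).

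Together the 116 further repair and checkpoint genes had 30 calls higher, 29 lower and 57 not passing, which is 50.9% called against 49.1% of all genes. By list, the share called ran from 33.3% for the translesion genes to 66.7% for the 3 mismatch genes. Of the called genes named from these lists, FAAP20, MSH3, PMS1, OGG1, POLM and REV3L had an adjusted p above 0.05 under at least 1 alternative. The same held for many called genes that are not named. It reached 0.579 for TDP1, 0.471 for RAD52 and 0.359 for DDB1, so the counts of 30 and 29 rest partly on unstable calls. Genes of the cell cycle also differed between the conditions. All 20 genes of a list for G2 and mitosis were higher in stiff, with a median log2 fold change of 1.21, among them the topoisomerase gene TOP2A (288 ± 5.40 CPM in stiff and 110 ± 3.24 CPM in soft) and the anaphase activator gene CDC20 (105 ± 7.15 and 37.0 ± 0.925 CPM). For MKI67, CENPF and FOXM1 of that list the adjusted p exceeded 0.05 under at least 1 alternative, where it reached 0.153, 0.176 and 0.0561. Of 25 genes for replication licensing and S phase, 13 were lower and 6 higher, with a median of -0.29 (76.0% called against 49.1% of all genes). The helicase genes MCM2 and MCM3 were 1.94-fold and 1.74-fold lower, while the nucleotide supply genes RRM2 and TYMS were 1.78-fold and 1.43-fold higher. The part of the cell cycle in the changes of the repair genes was not tested.

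**Figure D3:**
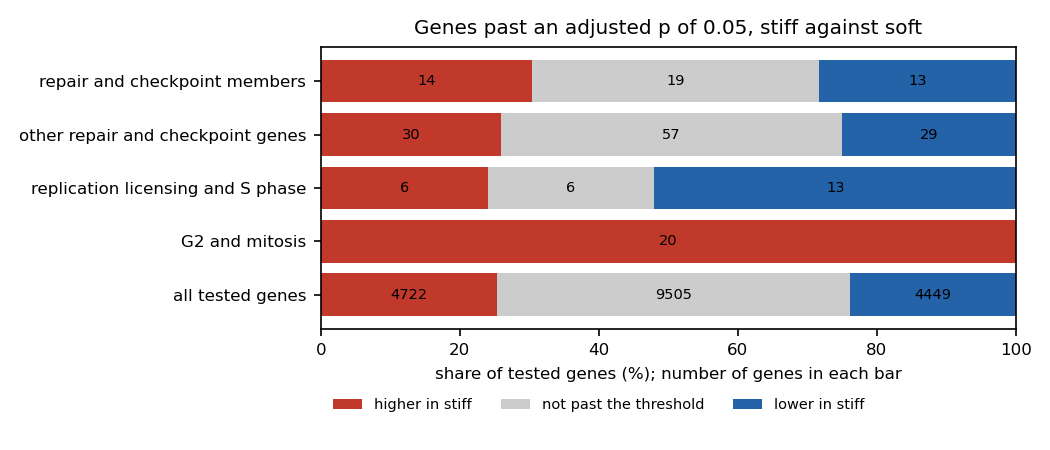
Share of tested genes (%) that were higher in stiff, not past the threshold or lower in stiff at an adjusted p of 0.05, with the number of genes in each bar, for the 46 members, the 116 further repair and checkpoint genes, 2 cell cycle lists and all tested genes. The repair genes divide close to the all-gene bar, whereas all 20 genes for G2 and mitosis are higher.

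Several changes run against each other within one complex or signalling step. BRCA1 and BARD1, ERCC4 and ERCC1, PARP1 and PARP2, and ATM and CHEK2 were called in opposite directions. The calls of BARD1, ERCC4, ERCC1, PARP1 and ATM were each lost under at least 1 alternative. FANCD2, LIG3, MRE11 and CHEK1, which are partners in other pairs, did not pass the test. The ratio of the counts of both partners was taken inside each library, where library scaling cancels. The 12 pairs, and which gene of each was put on top, were chosen with these results known. The direction of a ratio follows from that order, so a shared direction is not a result. A ratio of counts is also not a ratio of molecules, because the genes differ in length. The BRCA1 to BARD1 ratio was 0.874, 0.978 and 0.862 in stiff, against 2.22, 2.07 and 1.99 in soft. BARD1 thus had more fragments than BRCA1 in every stiff library and fewer in every soft one, and the ratio was 2.32-fold lower in stiff. The ATM to CHEK2 ratio was 0.924, 0.533 and 0.951 in stiff, against 2.12, 1.64 and 1.95 in soft, with stiff replicate 2 the lowest. The ATR to CHEK1 ratio was 4.38, 3.70 and 5.31 in stiff, against 9.47, 8.14 and 11.4 in soft. Both kinase ratios stayed apart between the conditions, 2.44-fold and 2.17-fold lower in stiff.

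The NBN to MRE11 ratio was 1.77-fold lower in stiff and the RAD50 to MRE11 ratio 1.48-fold lower. PARP1 to PARP2 was 1.78-fold lower, at 0.811, 0.768 and 0.850 in stiff, against 1.40, 1.48 and 1.45 in soft, so that PARP2 had more fragments than PARP1 only in the stiff libraries. ERCC4 to ERCC1, LIG3 to XRCC1 and FANCD2 to FANCI were 1.63-fold, 1.56-fold and 1.28-fold lower. These 9 ratios did not overlap between the conditions. How often ratios of other gene pairs stay apart was not measured, and 59.9% of all single genes did not overlap. A two-sided exact permutation test of 3 libraries against 3 cannot go below p = 0.1, so no ratio could pass 0.05 and the ratios are given as a description. The other 3 pairs overlapped. XRCC5 to XRCC6 was 0.746, 0.689 and 0.782 in stiff, against 0.750, 0.762 and 0.731 in soft, a difference of -0.02 on the log2 scale beside SDs of 0.09 in stiff and 0.03 in soft. BRCA2 to PALB2 and LIG4 to XRCC4 differed by 0.05 and -0.11 on the same scale.

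**Figure D4:**
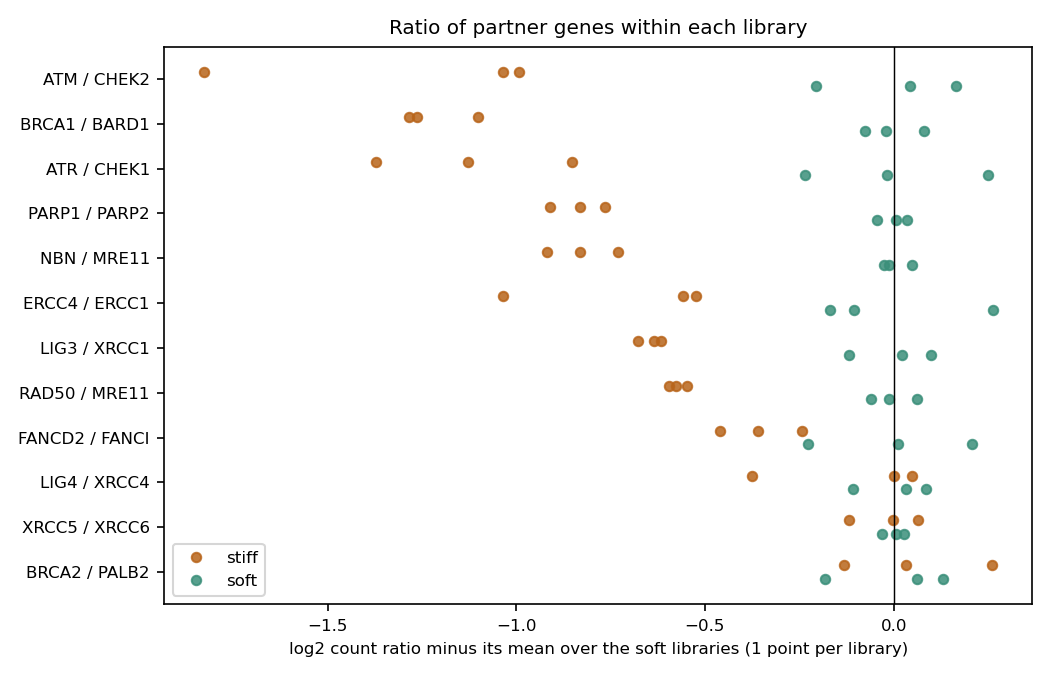
Log2 ratio of the counts of 12 partner pairs, minus the mean of the soft libraries, with 1 point per library and stiff above soft in each pair. In 9 pairs the stiff and soft points do not overlap, and in 3 pairs they do. The largest mean differences are -1.29 for ATM to CHEK2 and -1.21 for BRCA1 to BARD1. The sign of a difference depends on which gene of the pair was put on top.

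Levels were compared between genes as CPM per kilobase of GENCODE exon, a scale on which the Ku genes led the list. XRCC6 stood at 90.0 CPM per kilobase in stiff and 107 in soft, and XRCC5 at 39.9 and 48.0. FANCB was lowest, at 0.616 CPM per kilobase in stiff and 0.574 in soft, and BRIP1 and BRCA2 were next to it in both conditions. FANCC ranked 11th of 46 in stiff and 30th in soft, and ATR ranked 32nd in stiff and 20th in soft. The order between genes depends on the gene lengths used. In the deposited TPM of the stiff libraries, XRCC5 (237.4 to 268.6) stood above XRCC6 (139.5 to 142.5). BRCA2 (2.3 to 3.4) stood above BARD1 (0.9 to 1.1) there, while FANCB and BRIP1 stayed low, both at 0.2 to 0.3. Exon length also differed with the call, and was longest in the members that did not pass. The median exon length was 4695 bases for the members called higher, 6156 for those called lower and 7689 for those not passing. Across genes, which are not independent replicates, the log2 fold change and exon length had a Spearman correlation of -0.16 over 15803 genes and -0.31 over the 46 members. With a correction for length, 26 of the 27 calls were kept and PARP1 was lost, while FANCL, MSH6, ERCC5 and MRE11 were gained.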

How the data were processed

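From 500 ng of total RNA per sample, polyadenylated RNA was enriched, and directional libraries were amplified for 10 cycles and read as pairs of 61 bases, per the labels' protocols. STAR 2.6.1e, featureCounts 1.6.2, cutadapt 1.9.1, FastQC 0.11.7 and Trim Galore 0.4.2 were used, with the hg38 build, per the submitters' processing notes. Which annotation, strand setting and rule for multiply mapped reads applied was not given in the sources used here. Counts were deposited as whole fragments per gene symbol, without normalization, and the authors also gave TPM (length-scaled transcript abundance) per library. The gene lengths implied by those TPM ran from 0.245 to 11.3 times the GENCODE exon length over 41 members (scaled to a median of 1). Levels between genes had been planned in TPM. For that reason they use CPM per kilobase of exon instead, a change made after seeing the data.

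The counts were tested with edgeR 4.0.16 (quasi-likelihood F test, TMM factors, default filter, no covariate) in R 4.3.3 over all 18676 filtered genes. On simulated counts with 200 of 18416 genes changed, the test recovered 12% of 1.25-fold, 58% of 1.5-fold and 80% of 2-fold changes. Of its calls there 5.38% were false. Far fewer genes changed in that simulation than were called here. Alternatives used DESeq2 1.42.0, limma 3.58.1 on log2(TPM + 1) and log2(TPM + 0.1), other scalings and filters, a block on the replicate number and the removal of each library in turn; a length correction was added after seeing the data. Positions and shared exons come from GENCODE release 29 on GRCh38, and promoters from RefSeq. The members and lists were chosen with earlier results of these data known. Values in every library are given for members changed at least 1.5-fold, the smallest p of each class and BRCA1, BRCA2, FANCD2, ERCC1, ATM, ATR, CHEK1 and CHEK2; from each other list, up to 2 genes per direction with the smallest p are named. Pairs of libraries of 1 condition all differed by more than sampling noise (chi-square over degrees of freedom between 3.39 and 33.06).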

Additional observations from a re-analysis of the deposited data

How the results depend on the processing

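No called member passed the threshold in the opposite direction under any alternative run, but the balance of the counts turned with the scale. Without TMM factors, the calls were 4181 higher and 5170 lower over all genes (44.7% of calls higher, against 51.5%), and 12 members were higher and 13 lower. With limma, 2831 genes were higher and 3972 lower on log2(TPM + 0.1) (9 and 10 members), 2880 and 4088 on log2(TPM + 1) (10 and 11 members), and 3138 and 4109 on log2(TPM + 1) unfiltered (10 and 8 members). Of the 27 calls, 16 held in each of the 19 alternatives in which they were tested (the TPM filter kept 24 of the 27): ATR, BRCA1, CHEK2, DDB2, FANCC, FANCE, FANCI, NBN, PALB2, PARP2, POLH, RAD50, RAD51AP1, WRN, XRCC1 and XRCC5. The other 11 were lost in at least 1, and the cause was not tested. The number of members called higher, 14, was 6 at 1.5-fold or more, and the number called lower, 13, was 7 at an adjusted p below 0.01 and 3 at 1.5-fold or more. Without 1 library at a time, 11 to 15 members were higher and 8 to 14 lower, and 3746 to 5379 genes were higher and 3410 to 5224 lower. At 1.5-fold or more, the 4722 genes called higher became 2589 and the 4449 called lower became 2220. The median of all genes shifted by -0.111 with log2(TPM + 0.1). With the replicate number as a block, 14 members were higher and 14 lower (BRCA2 was gained), and 5167 and 5039 genes. The numbers were not taken to pair the libraries, because no label says that they mark a day or batch. Same-numbered libraries correlated in their deviations at 0.073, 0.216 and 0.05. Differently numbered ones correlated at -0.164, 0.093, -0.113, -0.108, 0.077 and -0.123. Not every library correlated best with its own number. Low counts limit FANCB, whose thinnest library held 55 fragments. Changes of members that did not pass lay between -0.29 and 0.15 on the log2 scale.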
